A study of Caenorhabditis elegans with 2 samples.

Results

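The insulin-like peptide genes of Caenorhabditis elegans were taken from the WBcel235 annotation as the protein-coding genes named ins- followed by a number, plus daf-28. There are 39 of them among 19973 protein-coding genes on the nuclear chromosomes. Their occupancy by NHR-80, a nuclear hormone receptor known for its part in fatty acid desaturation, was read from chromatin immunoprecipitation followed by sequencing (ChIP-seq). The animals were hermaphrodite young adults of strain OP460, genotype unc-119(tm4063) III; wgIs460, harvested whole 64 hours after release from L1 arrest. The integrated transgene makes NHR-80 with GFP and FLAG at its C terminus, and the sample description says that an anti-GFP antibody recovered it, while another label gives nhr-80 as the antibody. All material came from 1 group with 2 biological replicates, so no treatment, genotype or age was compared. Tissues cannot be told apart in whole animals, and the transgene adds to the resident nhr-80 gene.

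Insulin-like peptides are small secreted hormones, made as precursors and cut by proprotein convertases. They act on the single insulin receptor of the worm, DAF-2, as agonists or as antagonists. DAF-2 signals through the PI3-kinase AGE-1 and the AKT kinases to keep the FOXO factor DAF-16 out of the nucleus, and the pathway sets dauer entry, fat storage and lifespan. Many family members are made in sensory neurons, and some, among them ins-7, also in the intestine, the main fat store.

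For each gene, summits were counted from 2000 bp upstream of the 5' end to 1000 bp past the 3' end, called the gene window here. A narrower promoter window ran from 1000 bp upstream to 200 bp downstream of the 5' end. The main list was the authors' 7038 peaks thresholded by irreproducible discovery rate (IDR) on build ce11, of which 7020 are nuclear; these are the 7038 strongest of the 30000 pooled peaks. The other lists were the full pooled list and those of replicate 1 (30000 peaks) and replicate 2 (29712 peaks). Read depth is unknown, because peak lists carry no read counts. Each list has a lowest signal (4.45 in the pooled list), so a gene with no summit has none above that limit. The signal value of a peak is the authors' own and was used only to describe and rank peaks within a list.

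The sequences under the summits are shown first, because they let the sites be compared by eye. The first 4 are the strongest thresholded summits whose nearest protein-coding start belongs to the family. Those of ins-12 and ins-35 were added after the values were seen, so that every family promoter holding a thresholded summit is shown. Each is the 101 bp centred on the summit, plus strand of WBcel235, which is the ce11 assembly. They lie at chrIV:9682662-9682762 (ins-7), chrX:1345022-1345122 (ins-39), chrII:5557290-5557390 (ins-11), chrII:5543531-5543631 (ins-13), chrII:5553633-5553733 (ins-12) and chrV:20374701-20374801 (ins-35). Capitals mark matches on either strand to GATAA, the core read by GATA factors, to TGATAA, which holds that core, to the nuclear receptor core site AGGTCA, to the DAF-16 site GTAAACA or to the E-box CACGTG.
ins-7: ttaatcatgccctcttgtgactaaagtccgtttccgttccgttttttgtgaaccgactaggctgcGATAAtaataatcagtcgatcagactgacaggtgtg
ins-39: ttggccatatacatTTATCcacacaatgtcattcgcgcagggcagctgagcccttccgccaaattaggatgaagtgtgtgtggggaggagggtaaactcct
ins-11: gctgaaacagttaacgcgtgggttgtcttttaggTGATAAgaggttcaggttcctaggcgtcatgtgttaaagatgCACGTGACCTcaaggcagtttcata
ins-13: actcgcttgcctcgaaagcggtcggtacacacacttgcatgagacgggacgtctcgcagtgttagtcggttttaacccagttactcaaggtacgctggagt
ins-12: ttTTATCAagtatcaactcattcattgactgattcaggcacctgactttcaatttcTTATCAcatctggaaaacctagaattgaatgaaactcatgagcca
ins-35: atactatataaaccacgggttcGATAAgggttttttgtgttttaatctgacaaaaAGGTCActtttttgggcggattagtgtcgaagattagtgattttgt

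The site past the 3' end of ins-11 held the most matches. TGATAA lay on the plus strand, and CACGTG shared bases with AGGTCA read on the reverse strand. The ins-12 site held TGATAA at 2 places on the reverse strand. The ins-35 site held AGGTCA and GATAA, the ins-7 and ins-39 sites GATAA alone, and the ins-13 site none of the 5 motifs. A match describes the letters only and does not show which factor was bound.

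NHR-80 summits were found at a minority of the family. In the thresholded list, 10 of 39 members had a summit in the gene window (25.6%, 95% Wilson interval 14.6 to 41.1), against 32.3% of all protein-coding genes. In the promoter window the count was 4 of 39 (10.3%, interval 4.06 to 23.6), against 18.6% of all protein-coding genes. The full pooled list reached 13 of 39 gene windows (33.3%, interval 20.6 to 49.0), against 54.0% of all genes, and 9 of 39 promoter windows (23.1%, interval 12.6 to 38.3), against 38.1%. The family interval included the share of all genes for both thresholded counts and for pooled promoters, narrowly there, and lay below it for pooled gene windows. No test was made, and the intervals cover counting error only and treat genes with shared windows as separate.

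The replicates gave like counts. Among the 7038 strongest peaks of each, 9 members had a summit in the gene window in replicate 1 (31.7% of all genes) and 9 in replicate 2 (32.1% of all genes), and both sets lacked only ins-35 of the 10 above. With all peaks of a replicate list, 12 members had a summit in replicate 1 and 15 in replicate 2 (13.5 ± 2.12, SD, n = 2), against 57.5% and 58.7% of all genes. In promoter windows, all peaks of replicate 1 reached 8 members, against 39.6% of all genes, and those of replicate 2 reached 10, against 40.0%. Among the 7038 strongest peaks, the promoter count was 3 with replicate 2 alone (18.4% of all genes) and 2 with replicate 1 alone (18.1% of all genes), against 4 in the thresholded list.

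Family genes are short, and longer windows catch more summits. Their median length was 655 bp against 2027 bp for all protein-coding genes, and their gene windows had a median of 3655 bp against 5027 bp. Among the 12938 protein-coding genes whose window was no longer than the longest of the family (5788 bp), 27.4% had a thresholded summit and 48.8% a pooled summit. In the family these shares were 25.6% and 33.3%. Counted per kb, with overlapping windows merged, the family held 12 thresholded summits in 128 kb, or 0.0938 per kb, against 0.0720 per kb in the windows of all protein-coding genes. Beside genes with windows up to that length, the family's thresholded share was thus close and its pooled share lower. Its density was higher than that of all genes. None of this was tested, and window lengths were not matched below that limit. The higher density was not kept in every setting: it was 0.0625 per kb with replicate 1 alone, without replicate 2, against 0.0717 for all genes, and 0.0496 per kb without the flank past the 3' end, against 0.0725. The summits were gathered at few genes, and 6 of the 12 lay in 14.1 kb around ins-11, ins-12 and ins-13.

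**Figure D1:**
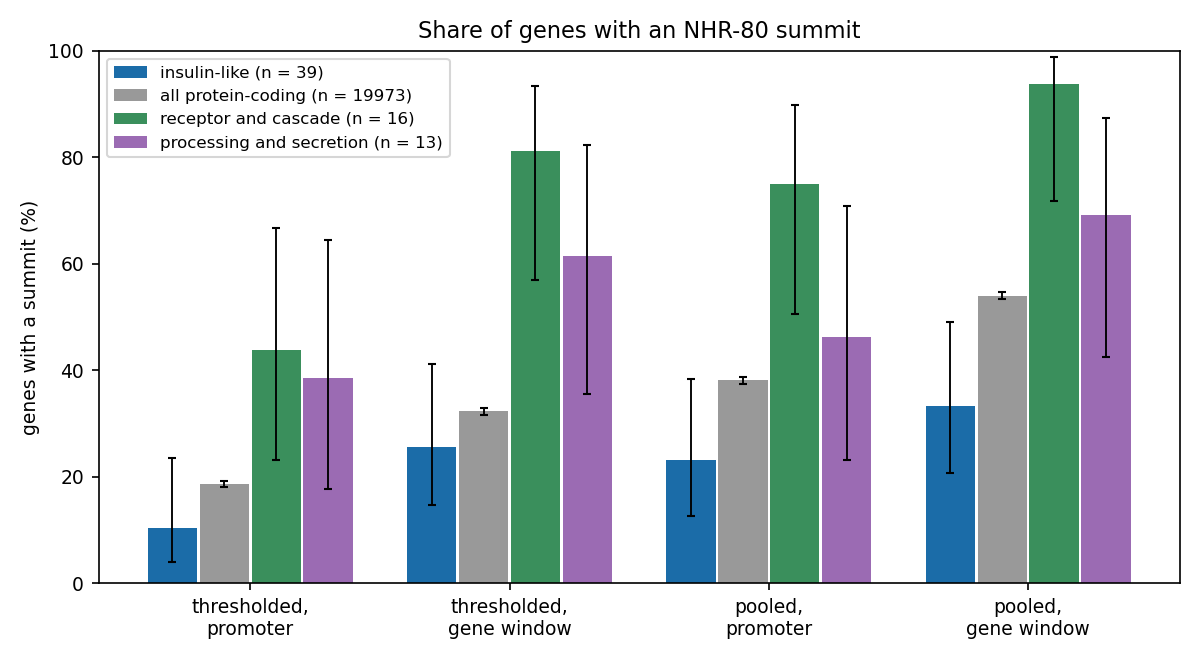
Percent of genes with a summit (y axis, from 0) for the 39 insulin-like genes, all protein-coding genes and the 2 pathway lists, by list and window; bars are shares and error bars 95% Wilson intervals. The insulin-like bars stand at 10.3%, 25.6%, 23.1% and 33.3%, each below the grey bar of all genes, and the 2 pathway bars stand above it.

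Of the 12 thresholded summits, the strongest had a signal of 639 and the weakest 93.9, with a median of 164 against 194 over all nuclear thresholded summits. Only 4 of the 12 were above that overall median. By place, 7 of the 12 lay past the 3' end of every family gene whose window held them, and 4 lay in the promoter window of a family gene. Counted by gene, 5 of 39 members (12.8%) had a thresholded summit within 1000 bp past the 3' end, against 8.14% of all protein-coding genes. Upstream, 5 of 39 (12.8%) had a summit within 2000 bp, against 22.5% of all genes, and in the gene body 2 of 39 (5.13%), against 8.79%. With the full pooled list the counts were 9 upstream (42.7% of all genes), 4 in the gene body (32.1% of all genes) and 9 past the 3' end (27.3% of all genes). The share of the family was thus above that of all genes past the 3' end in the thresholded list and below it in the other 5 of these comparisons, none of which was tested.

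**Figure D2:**
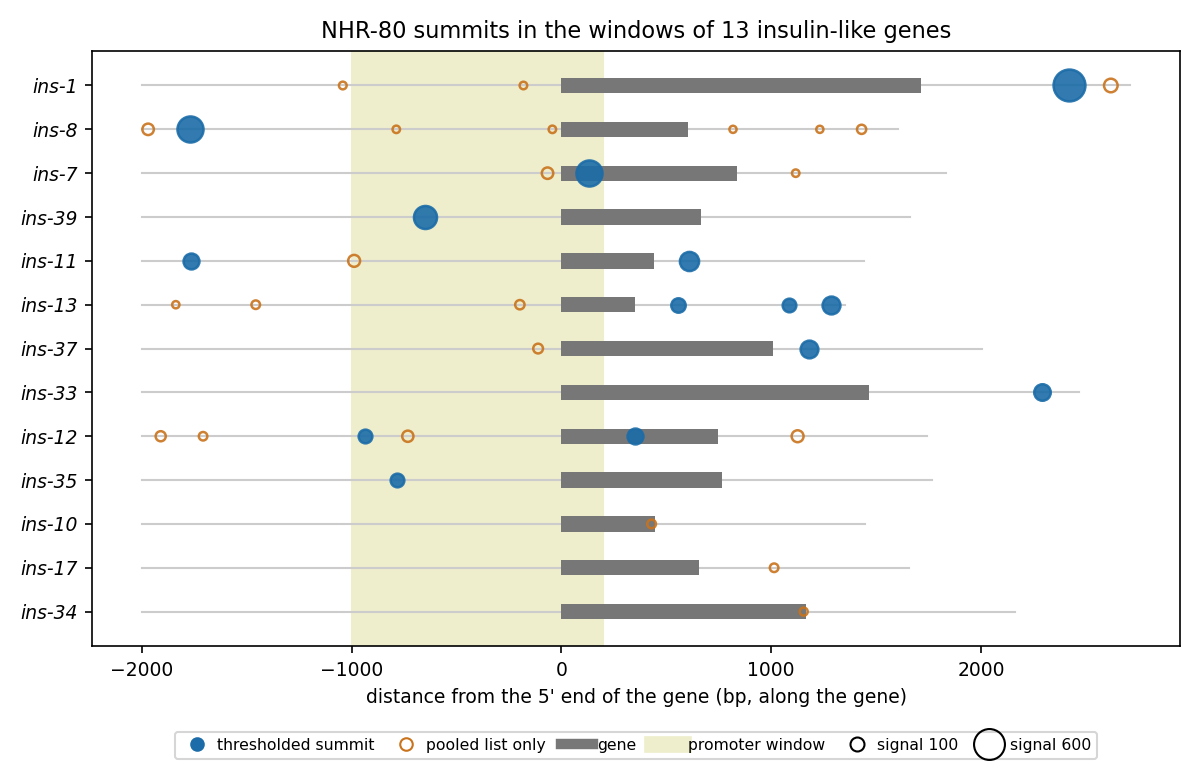
Summits in the windows of the 13 insulin-like genes that had any in the pooled list, by distance in bp from the 5' end along the gene (x axis); filled points are thresholded summits, open points are in the pooled list only, and point area grows with the signal value. Filled points lie past the 3' end of ins-1, ins-11, ins-13, ins-37 and ins-33, and in the shaded promoter window of ins-7, ins-39, ins-12 and ins-35.

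Of the members chosen for a known role, the agonists come first. ins-7 encodes an agonist that takes part in a feedback loop with DAF-16. Its gene (chrIV:9682011-9682845, minus strand) held a summit at chrIV:9682712 in an intron, 133 bp downstream of the 5' end, at the site printed above. The pooled signal was 418 (rank 943 of the thresholded list), with 216 (rank 1050) in replicate 1 and 201 (rank 881) in replicate 2. It was the strongest summit in any family promoter window in each of these lists. The same summit lay in the promoter window of the neighbouring gene ZK1251.3 and at -1771 bp from ins-8, so ins-8 counts among the 10 members through the ins-7 site. A weaker summit of the pooled list (57.7) lay 66 bp upstream of ins-7, on the small nuclear RNA gene ZK1251.14. In the ins-8 promoter itself the pooled list had only weak summits, of 8.07 and 7.88.

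The agonists daf-28, ins-4 and ins-6, made in sensory neurons that control dauer entry and exit, had no summit in their gene windows in any of the 4 lists. Counted from the 5' end, the nearest pooled summit lay 6065 bp away for daf-28, 27429 bp for ins-4 and 23359 bp for ins-6. For ins-3, another neighbour of ins-4, the distance was 33027 bp. Both replicates and the pooled list were empty across the whole group of ins-2 to ins-6 and ins-20 (chrII:5988524-6011321, 22.8 kb). The pooled summits that flank this group were 79.0 kb apart, and 73 of the 29974 gaps between neighbouring pooled summits were at least that long. A count of gaps leaves out how much of the genome the long ones cover. Of genome segments as long as this group, 21% had no pooled summit, so an empty stretch of its length was not rare.

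Among members described as antagonists, ins-1 and ins-18 were looked at. The peptide of ins-1 resembles human insulin most closely within the family. The strongest summit of any family window lay 707 bp past the 3' end of ins-1 (chrIV:10436701-10438412, plus strand), at chrIV:10439119, with a pooled signal of 639, 349 in replicate 1 and 290 in replicate 2. That summit was 4 bp from the 5' end of the neighbour F13B12.3 and in no promoter window of a family gene. It was the only 1 of the 12 whose nearest protein-coding start belonged to another gene. Near the start of ins-1 the pooled list had summits of 8.98 at -181 bp and 10.4 at -1042 bp, both far below the lowest thresholded signal of 93.0. ins-18, also described as an antagonist, had no summit in any list, and its nearest pooled summit was 11563 bp from the 5' end.

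The stretch of chromosome II with ins-13, ins-12 and ins-11 held 6 of the 12 thresholded summits in family gene windows. ins-11 encodes a peptide linked to the behavioural response to pathogens in the gut. Its strongest summit, chrII:5557340, lay 167 bp past the 3' end of the gene (chrII:5556731-5557173, plus strand), with values of 213 pooled, 110 in replicate 1 and 101 in replicate 2. ins-12 (chrII:5554617-5555361, plus strand) had a summit in an intron (137 pooled, 80.8 and 57.3 in replicates 1 and 2), which also lay at -1765 bp from ins-11. Its promoter summit at -934 bp had 95.0 pooled, 40.6 in replicate 1 and 56.9 in replicate 2. Between both genes the pooled list had a summit 988 bp upstream of ins-11 with 65.0, which did not reach the threshold.

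ins-13 (chrII:5544512-5544864, minus strand) had 3 thresholded summits, all past its 3' end. They lay 931, 731 and 203 bp beyond it, with pooled signals of 181, 93.9 and 108, and the first fell on the noncoding RNA gene C17C3.23. The pair at 931 and 731 bp shares 1 peak interval, and none of the 3 sites held any of the 5 motifs. Upstream of ins-13, over the acyl-CoA dehydrogenase gene acdh-2, the pooled list had weak summits of 28.9, 19.6 and 6.19.

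**Figure D3:**
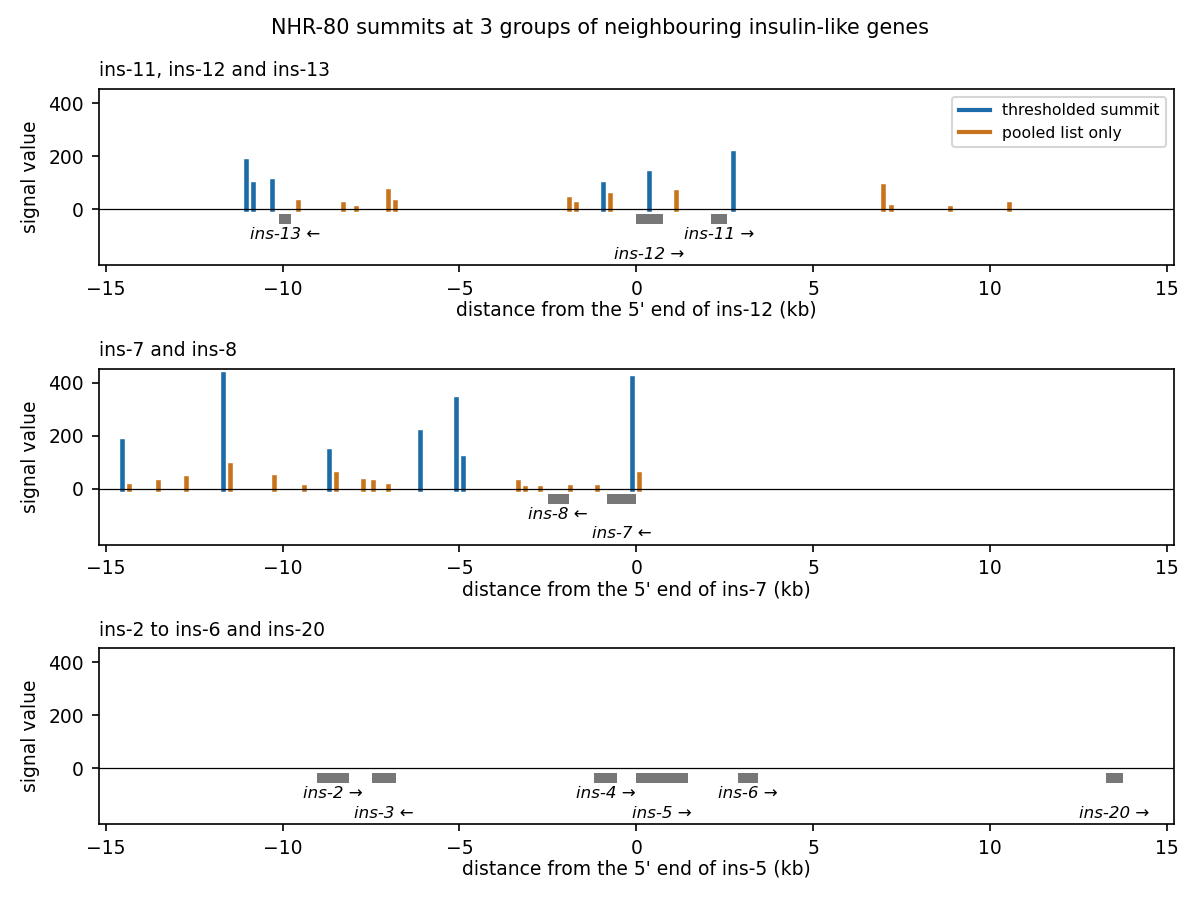
Signal value (y axis) of every pooled summit by distance in kb along the plus strand (x axis), within 15 kb of the 5' end of ins-12, ins-7 and ins-5; blue lines are thresholded summits, orange lines are in the pooled list only, and grey boxes are the insulin-like genes with arrows for their strand. There were 6 thresholded summits in the first panel, 7 in the second and 0 in the third. All those of the first panel lay in family gene windows, but in the second panel only the summit in the ins-7 intron did.

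Of the remaining members with thresholded summits, ins-39 had the strongest promoter site after ins-7. The summit at chrX:1345072 lay 651 bp upstream of the gene (chrX:1343758-1344421, minus strand), with 321 pooled, 187 in replicate 1 and 134 in replicate 2. No other promoter window held this summit. ins-35, known for its expression in the intestine, had a summit 785 bp upstream (chrV:20374751) with 94.2 pooled, 49.6 in replicate 1 and 44.0 in replicate 2. That value is close to the lowest in the thresholded list, and its ranks of 7390 and 7189 put it outside the 7038 strongest of either replicate.

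ins-37 and ins-33 had their summits past the 3' end. At ins-37 (chrII:13835101-13836107, minus strand) the summit lay 173 bp beyond the gene, on the noncoding RNA gene F08G2.12, with 178 pooled, 88.8 in replicate 1 and 89.2 in replicate 2. A summit 111 bp upstream of ins-37 had 33.9 in the pooled list. ins-33, expressed in the hypodermis of larvae, had a summit 823 bp past its 3' end (chrI:13637022) with 151 pooled, 76.2 in replicate 1 and 73.0 in replicate 2. Both sites held TGATAA within 50 bp.

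Across replicates, the order of these sites was much alike. The summit past ins-1 ranked 256 in replicate 1 and 291 in replicate 2, and the ins-39 summit 1417 and 2005. For 9 of the 12 thresholded summits, the strongest peak overlapping the interval was within rank 7038 in each replicate. Besides ins-35, the exceptions were the ins-12 promoter summit (ranks 8473 and 5811) and the ins-13 summit nearest to the gene (8017 and 5194). Each replicate value is that of the strongest replicate peak overlapping the thresholded interval, so the pair of ins-13 summits in 1 interval carries the same ranks. The replicate summits nearest to the weaker of that pair (93.9 pooled) ranked 7526 in replicate 1 and 6804 in replicate 2. By its own ranks that summit would thus fall outside 7038 in replicate 1. The replicates also entered the pooled list, so these ranks do not measure agreement independently.

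**Figure D4:**
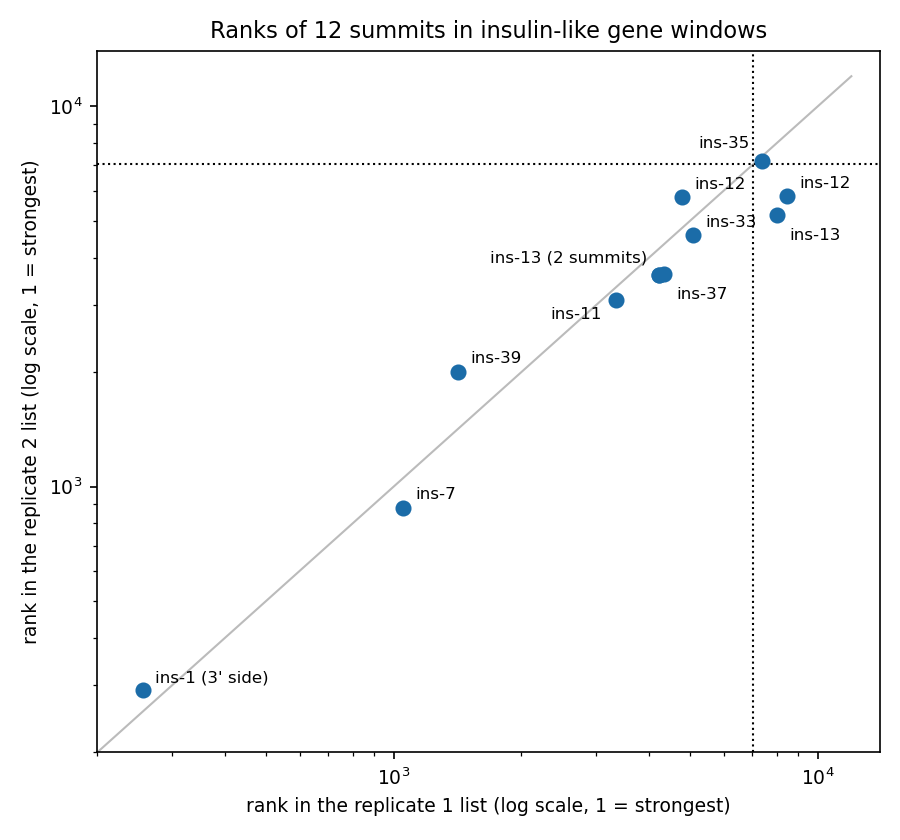
Rank in the replicate 2 list (y axis) against rank in the replicate 1 list (x axis) of the strongest peak overlapping each of the 12 thresholded summits, both on log scales, named by the nearest family start; the grey line is equal rank and the dotted lines mark rank 7038. The summit past ins-1 is strongest in both, and 9 of the 12 points lie inside both dotted lines, with 2 ins-13 summits at 1 point.

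The remaining members with a pooled summit were ins-10, ins-34 and ins-17, each with 1 that did not reach the threshold. The values were 20.7 at ins-10 and 13.5 at ins-34, both where the 3' UTR overlaps that of a convergent neighbour, and 19.8 past the 3' end of ins-17, in an intron of the ribosomal protein gene rps-1. Over the whole family, 20 distinct summits were in the pooled list only, from 4.92 to 92.7 with a median of 19.7. The highest of these was a second summit in the peak past ins-1, just under the threshold, and the next was the 65.0 between ins-12 and ins-11. ins-28 (18.5) and ins-16 (4.08) had a summit in replicate 2 alone.

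The other 24 members had no summit in any of the 4 lists (61.5%, against 36.8% of all protein-coding genes and 42.4% of those with windows no longer than the family's longest). They were daf-28, ins-2 to ins-6, ins-9, ins-14, ins-15, ins-18 to ins-27, ins-29 to ins-32 and ins-36. Their nearest pooled summit lay between 3120 and 35271 bp from the 5' end, with a median of 15414 bp. Over all 39 members the median distance was 7411 bp, against 2029 bp for all protein-coding genes. To the nearest thresholded summit the medians were 14984 and 6006 bp.

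Many of these members sit in clusters, so they are not separate observations. The 7 genes ins-24 to ins-30 span 25.4 kb (chrI:14012369-14037777) with 0 pooled summits and 1 in replicate 2, and the pooled summits on either side were 95.0 kb apart. ins-21 to ins-23 span 4.95 kb (chrIII:10023752-10028697) in a gap of 91.7 kb. Of genome segments as long as the 25.4 kb group, 18.3% had no pooled summit, as did 21% of those as long as the 22.8 kb group of ins-2 to ins-6 and ins-20 and 54.1% of those as long as the 4.95 kb group of ins-21 to ins-23. Whether reads map less well in these clusters was not tested, since the lists carry no coverage. By chromosome, thresholded summits were found at 1 of 10 members on I (32.9% of all genes there), 4 of 15 on II (30.1% of all genes), 0 of 5 on III (37%), 3 of 4 on IV (30.2%), 1 of 3 on V (27.7%) and 1 of 2 on X (40.6%).

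Within 50 bp of the 12 thresholded family summits, TGATAA occurred at 5 (41.7%, 95% Wilson interval 19.3 to 68.0), against 37.9% of all 7020 nuclear thresholded summits. The shorter GATAA occurred at 9 (75%, interval 46.8 to 91.1), against 49.2%, and the 3 without it were those of ins-13. AGGTCA occurred at 2 (16.7%, interval 4.70 to 44.8), at ins-11 and ins-35, against 3.33%. CACGTG also occurred at 2, at ins-11 and in the ins-12 intron, against 4.25%. GTAAACA was at 0 of 12, which allows a share of up to 25%, against 2.34% of all summits. The intervals of AGGTCA and CACGTG lie just above the share of all summits and the others include it, but each of these rests on 2 summits, 1 of them shared, and none of the 5 motifs was tested.

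The genes that act on and after the peptides were counted in the same way. Of 16 receptor and cascade genes, 7 had a thresholded promoter summit (43.8%, interval 23.1 to 66.8) and 13 a summit in the gene window (81.2%), beside the 18.6% and 32.3% of all genes. The difference was not tested, and the 16 genes were picked with earlier results of these data known. They include hsf-1, skn-1 and pqm-1, and pqm-1 is among the 7 counted. The 14-3-3 protein genes ftt-2 (601 pooled) and par-5 (506 pooled) had the strongest promoter summits, followed by daf-16 (364 pooled, at -323 bp). Next came akt-2, at -722 bp, with 128 in replicate 1 and 110 in replicate 2. Replicate signals are on a lower scale than pooled ones, and those of the daf-16 promoter summit were 187 and 184. Elsewhere in its gene window daf-16 had a stronger summit (758, at 7676 bp from the 5' end). daf-2 had no promoter summit and 3 in its long gene window, the strongest with 283. age-1 had none in any window of the thresholded or pooled list, and akt-1 had pooled but no thresholded summits. The full replicate 2 list reached the gene windows of 16 of the 16 genes, age-1 among them, against 58.7% of all genes. These genes are longer than the peptide genes, so their gene windows have more room for summits, while the promoter windows have the same length.

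Of 13 genes for peptide processing and secretion, 5 had a thresholded promoter summit (38.5%, interval 17.7 to 64.5), beside 18.6% of all genes. They were the convertase genes aex-5 (210) and bli-4 (98.9), the carboxypeptidase gene egl-21 (168), rund-1 (163) and hid-1 (111), which act in dense-core vesicles. egl-3, the main neuropeptide convertase gene, and unc-31, needed for dense-core vesicle release, had no thresholded or pooled summit in their gene windows. With the replicate lists included, 1 of the 13 genes had no summit in its gene window in any of the 4 lists, against 36.8% of all genes. The genes were picked in the same way as the receptor and cascade genes, and their difference from all genes was not tested.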

How the data were processed

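ChIP-seq peak lists of 2 biological replicates and their pool were used. The signal values and summit offsets were deposited by the authors in the narrowPeak layout. Per the notes deposited with the samples, a control sample entered peak calling, and the IDR step took the replicate and pooled lists as its input. The name of the caller or aligner and the IDR limit were not given in the sources used here. Of the ce10 lists, only the number of thresholded peaks was used.

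Summits were set against WBcel235 and Ensembl release 115, with mitochondrial peaks left out. Each gene was credited with all summits inside its window. Overlap meant at least 1 bp. Motifs were searched on both strands, fully within 50 bp of the summit. Shares carry 95% Wilson intervals, and a count of 0 the limit that 3 counts give. The 2 pathway lists named 30 genes, of which 29 matched the annotation (rab-2 did not).

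Members were named by a rule: the 15 strongest, those with promoter summits, and 11 chosen for known roles. The values of 1 gene of the pathway lists are not reported here. Members, lists and rule were chosen with earlier results of these data known. No set test was made. The window counts were tested on simulated data and checked against bedtools 2.31.1 (6443 genes by both). Counts and intervals used scipy 1.17.1, pandas 2.3.3 and numpy 2.4.6 in Python 3.11.15, and plots matplotlib 3.10.9.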

Additional observations from a re-analysis of the deposited data

How the results depend on the processing

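Under every alternative run, the family's counts in the thresholded and pooled lists stayed below the share of all genes counted the same way. The pathway promoter count stayed above that share. For gene windows the gap nearly closed when each summit was counted only for the nearest 5' end. That setting gave 8 members (20.5%), against 21.2% of all genes. The family's promoter count there was again 4 (10.3%), still below the share of all genes. With only peaks above the median signal, the family counts were 5 in gene windows (12.8% against 18.8%) and 2 in promoter windows (5.13% against 9.78%), the pathway count was 6 (20.7%) and the density 0.0313 per kb (0.0357 for all genes). Without the flank past the 3' end, 6 gene windows held a summit (15.4% against 27.9%) and the density was 0.0496 per kb, so it then lay below the 0.0725 of all genes. Leaving out a replicate gave 9 gene windows either way (31.7% to 32.1% of all genes), 2 to 3 promoter windows (18.1% to 18.4%), 12 to 15 pooled gene windows (57.5% to 58.7%), 13 pathway genes by promoter (18.1% to 18.4%) and 0.0625 to 0.0938 summits per kb. With GATAA in place of TGATAA the motif share was 75% (49.2% of all summits). TGATAA within 100 bp gave 50%, below the 51.7% of all summits, and within 25 bp 33.3%, above their 22.3%. The alternatives that changed the peaks used gave 45.5% to 50% (34.1% to 42.5% of all summits). The thresholded ce10 list holds 9962 peaks, and taking as many of the pooled ce11 peaks, chosen after seeing the data, gave 10 gene windows (38.6% of all genes) and 5 promoter windows (23.8% of all genes). Replicate pairing across groups does not arise with 1 group. Some of these settings use fewer peaks, libraries or bases, and the causes of the changes were not tested. Depth is unknown, so how many weaker sites were missed is unknown too.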

Other observations

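The other secreted peptide families were counted in the same windows. Of 31 FMRFamide-like peptide genes (flp), 0 had a thresholded promoter summit, which allows a share of up to 9.68%. In the gene window 2 had a thresholded summit (6.45%). Of 71 neuropeptide-like genes (nlp), 1 had a thresholded promoter summit (1.41%, 95% Wilson interval 0.249 to 7.56) and 10 a thresholded gene-window summit (14.1%). The single thresholded promoter summit was at nlp-40 (296, at -182 bp), which encodes a peptide released from the intestine in the defecation cycle. For the insulin-like genes these shares were 10.3% and 25.6%, and for all protein-coding genes 18.6% and 32.3%. The pooled list narrowed the gap to the nlp genes. It reached 13 of 71 nlp promoters (18.3%), 0 of 31 flp promoters and 9 of 39 insulin-like promoters (23.1%), against 38.1% of all genes. The shares with no summit in any of the 4 lists were 57.7% for nlp, 67.7% for flp and 61.5% for insulin-like genes, against 36.8% of all genes. The differences between families were not tested.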
